A study of Homo sapiens with 47 samples.

Results

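The 9 genes described here are regulators and receptors of the neural crest and its derivatives: *FOXD3*, *ETS1*, *MITF*, *NGFR*, *ERBB3*, *KIT*, *EDNRB*, *RET* and *GFRA1*. They were chosen by name, as 9 of the 58051 Ensembl genes listed in each of 47 bulk RNA-seq libraries, and all 9 passed the filter on low counts. The question was which crest derivatives they foreshadow, by time point and by cell fraction. The list and the companion lists below were drawn up with earlier results of these data known.

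All libraries came from H9 (WA09), an established human embryonic stem cell (hESC) line kept in mTESR1 on Matrigel. At t0 the cells were undifferentiated, and at 36 h they were neuromesodermal progenitor (NMP)-like after exposure to the WNT agonist CHIR-99021, rhFGF2, the inverse retinoic acid receptor agonist AGN193109 and Y-27632 in N2B27 medium without vitamin A. Cells were then replated in the same factors at each passage from P1 to P10. Per the study's description, cultures had separated by P5 into epithelial pre-neural progenitors (PNPs) and mesenchymal neural crest (NC) cells, and at P5 and P8 these fractions were enriched by selective detachment with TrypLE. There were 3 independent differentiations, each with all 12 time points and both fractions at both passages, except that P9 had 2 libraries. The t0 cells are the only untreated group, so every later library shares the same exposure to the factors. All libraries are from 1 cell line, and the fractions are enriched, not pure.

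The neural crest is a migratory population that leaves the dorsal neural tube and forms pigment cells, glia, sensory and autonomic neurons, the enteric nervous system and, from the head, much of the facial skeleton. *FOXD3* and *ETS1* are transcription factors of the early crest, *ETS1* being best known in cranial and cardiac crest. *MITF* is the master transcription factor of melanocytes, and KIT (for stem cell factor) and EDNRB (for endothelin 3) are receptors that melanoblasts need. NGFR, the p75 neurotrophin receptor, marks migrating crest, and ERBB3 receives neuregulin in Schwann cell precursors. RET with its co-receptor GFRA1 receives GDNF, the signal that enteric crest requires, and EDNRB acts in the same cells.

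In GRCh38 (GENCODE 29) all 9 are annotated as protein-coding. *FOXD3* (ENSG00000187140) lies at chr1:63323041-63325126 on the plus strand, *ETS1* (ENSG00000134954) at chr11:128458761-128587558 on the minus strand, *MITF* (ENSG00000187098) at chr3:69739435-69968337 on the plus strand and *NGFR* (ENSG00000064300) at chr17:49495293-49515017 on the plus strand. *ERBB3* (ENSG00000065361) lies at chr12:56076799-56103505 and *KIT* (ENSG00000157404) at chr4:54657918-54740715, both on the plus strand. *EDNRB* (ENSG00000136160) lies at chr13:77895481-77975529 on the minus strand, *RET* (ENSG00000165731) at chr10:43077027-43130351 on the plus strand and *GFRA1* (ENSG00000151892) at chr10:116056925-116273467 on the minus strand. *FOXD3* is overlapped on the opposite strand by *FOXD3-AS1*, which reached 2312 expected counts in a library against 4331 for *FOXD3*. The strand setting of the counting is not given in the sources used here, so reads of this pair may not be separable. *ERBB3* shares its strand with an overlapping gene model, *AC034102.2*, which reached at most 1335 expected counts against 14746 for *ERBB3*.

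RefSeq start-site sequences (GRCh38.p14, 250 bases before to 50 bases after a listed start) were found for 6 of the 9 genes, in 13 entries. Of these, 5 are printed because they belong to the genes whose levels moved furthest: *FOXD3*, *MITF*, *EDNRB*, *RET* and *GFRA1*. They were searched on both strands for ACAAAG (a core recognised by SOX factors, found in 16.1% of the 35116 promoters of this length), CTTTGA (TCF/LEF, 12.9%), GCCNNNGGC (TFAP2, 23.2%) and CATGTG (an E-box bound by MITF family factors, 11.1%). The reverse of the SOX core, CTTTGT, shares its first 5 letters with the TCF/LEF core. Capitals mark a match, written as it stands on the gene's strand, and a match is a description of letters, not of binding.
FOXD3, chr1:63322317-63322616, plus strand, SOX core at -126: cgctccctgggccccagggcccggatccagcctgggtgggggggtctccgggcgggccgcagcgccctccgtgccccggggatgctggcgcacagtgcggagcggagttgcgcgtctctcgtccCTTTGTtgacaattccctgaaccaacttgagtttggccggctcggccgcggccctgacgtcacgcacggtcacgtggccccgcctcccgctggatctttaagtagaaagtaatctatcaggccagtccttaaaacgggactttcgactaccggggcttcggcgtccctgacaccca
MITF, chr3:69936342-69936641, plus strand, listed start 3, TCF/LEF core at -204: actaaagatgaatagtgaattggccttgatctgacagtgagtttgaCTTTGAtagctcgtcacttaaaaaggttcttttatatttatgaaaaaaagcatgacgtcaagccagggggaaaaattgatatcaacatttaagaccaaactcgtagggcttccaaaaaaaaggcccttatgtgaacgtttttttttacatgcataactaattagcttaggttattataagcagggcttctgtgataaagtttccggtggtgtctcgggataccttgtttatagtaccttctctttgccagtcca
EDNRB, chr13:77919633-77919932, minus strand, CATGTG E-box at -151: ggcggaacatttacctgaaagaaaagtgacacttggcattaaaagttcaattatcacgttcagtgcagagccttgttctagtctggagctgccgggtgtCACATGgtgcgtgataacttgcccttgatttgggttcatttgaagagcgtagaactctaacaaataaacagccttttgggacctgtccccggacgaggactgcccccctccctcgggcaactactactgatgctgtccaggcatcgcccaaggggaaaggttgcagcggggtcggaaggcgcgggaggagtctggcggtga
RET, chr10:43076819-43077118, plus strand, TFAP2 core at -92: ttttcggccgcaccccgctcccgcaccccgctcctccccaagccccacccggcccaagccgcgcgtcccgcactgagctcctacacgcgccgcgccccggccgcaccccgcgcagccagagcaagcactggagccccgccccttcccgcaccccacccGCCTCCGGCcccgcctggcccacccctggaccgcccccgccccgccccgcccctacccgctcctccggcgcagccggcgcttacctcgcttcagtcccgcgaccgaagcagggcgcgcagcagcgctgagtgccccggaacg
GFRA1, chr10:116272426-116272725, minus strand, TFAP2 core at -247: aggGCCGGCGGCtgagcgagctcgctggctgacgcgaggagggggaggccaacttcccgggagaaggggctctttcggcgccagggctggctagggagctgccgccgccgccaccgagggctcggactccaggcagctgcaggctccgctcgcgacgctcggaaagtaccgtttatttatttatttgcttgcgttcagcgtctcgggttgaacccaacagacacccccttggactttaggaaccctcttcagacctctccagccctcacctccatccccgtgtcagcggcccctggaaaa

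The printed *MITF* start lies 197157 bases into the annotated gene. The other 2 listed starts of *MITF* lie nearer the gene's start, and 1 of them holds a SOX core at -189. The nearest, chr3:69739214-69739513, holds none of the 4 cores, whereas for the other genes printed the nearest entry is shown. Which *MITF* start these cells used was not tested. The other *EDNRB* entry holds a TFAP2 core at -190. Of the other 3 *GFRA1* entries, 1 holds a SOX core at -120, 1 holds TCF/LEF (-73), TFAP2 (16) and E-box (-196) cores and 1 holds none. The other *RET* entry holds none. The *KIT* entry, chr4:54657707-54658006, held none of the 4 cores. The members therefore have no single core in common in these windows.

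Total expected counts per library ranged from 13029491 to 64082859, with a median of 47292229. Some libraries stood apart before any gene was tested. At P10 the summed level of 8 markers of epithelial progenitors, among them *CDX2* and *SOX2*, was 439 TPM, RSEM's level corrected for transcript length, in differentiation 1 against 7.99 and 6.77 in differentiations 2 and 3. At P9 it was 17.9 and 18.8 TPM, so the P10 library of differentiation 1 lay with the earlier passages for these markers. At P8 the same sum was 732, 272 and 167 TPM in differentiations 1, 2 and 3. Member calls at P10 against t0 that were lost without the P10 library of differentiation 1 are named below. With it 18.3% of all genes were called there, and without it 18.6%. In bulk libraries, fewer cells of a type and less RNA per cell cannot be told apart, and this holds for every level below.

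In the text a normalized count is an expected count scaled for library size, used to compare 1 gene between libraries, and TPM is used where genes are compared. The test was the quasi-likelihood F-test of edgeR, in which the 3 differentiations formed blocks. A gene was called when its false discovery rate (FDR) was below 1%, its level differed at least 2-fold and its average across the compared libraries was no lower than 100 normalized counts. Adjusted p-values are Benjamini-Hochberg values over all genes tested, and SE is the standard error of the log2 fold change. The comparisons with t0 share the same 3 t0 libraries.

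At 36 h, when the cells were NMP-like, none of the 9 genes passed the test against t0, where 2.71% of all genes tested were called. *FOXD3* had the largest difference. It stood at 633, 589 and 703 normalized counts in the t0 libraries of differentiations 1, 2 and 3 and at 33.2, 12.7 and 0 at 36 h. Every 36 h library lay below every t0 library, and in the library of differentiation 3 no read was counted, which allows up to 3 counts. The log2 fold change of *FOXD3* was -5.19 (SE 1.37) with an edgeR adjusted p of 0.0135, just outside the threshold. *ETS1*, *NGFR*, *ERBB3* and *KIT* were also lower in 3 of 3 differentiations, with groups that did not overlap. Their log2 differences were -1.35, -1.32, -0.45 and -0.95, and the lowest edgeR adjusted p among them was 0.0484, for *KIT*. At an unadjusted p under 0.05 there were 3 members. The median log2 difference of the 9 genes was -0.70, beside 0.00 over all genes tested.

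The mean levels of *FOXD3* and *ETS1* were lowest at P1, where the range of *FOXD3* overlapped those of 36 h and P2 and that of *ETS1* overlapped P2. Against t0 at P1, *FOXD3*, *ETS1* and *KIT* fell and no member rose, beside 8.79% of all genes called. *FOXD3* stood at 8.22, 1.24 and 2.37 normalized counts in the P1 libraries, a log2 fold change of -7.82 (edgeR adjusted p = 0.00102, SE 1.69). *ETS1* stood at 117, 214 and 283 normalized counts, against 2887, 2436 and 2333 at t0. Every P1 value of both genes lay below every t0 value. For *ETS1* the log2 fold change was -3.90 (edgeR adjusted p = 9.61e-05, SE 0.66). *KIT* fell from 2445, 2588 and 2216 normalized counts to 394, 444 and 474, a narrow spread in both groups. Its log2 fold change was -2.43 (edgeR adjusted p = 8.27e-06, SE 0.33), and *KIT* alone of the 3 kept its call whichever differentiation was left out. Without differentiation 2 the edgeR adjusted p was 0.0577 for *FOXD3* and 0.0196 for *ETS1*, and without differentiation 3 that of *FOXD3* was 0.0116.

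*NGFR* went the other way at P1 without passing the test. It stood at 1697, 1669.9 and 3953 normalized counts, above all 3 t0 libraries at 680.0, 815 and 852. The log2 difference was 1.62 (SE 1.24) with an edgeR adjusted p of 0.337. The high values did not last in every differentiation, since P2 gave 1523, 498 and 40.7 normalized counts. *NGFR* was called in no comparison of this course.

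By P2, 5 of the 9 genes were called lower than at t0: *FOXD3* (log2 fold change -4.74), *ETS1* (-2.24), *ERBB3* (-3.05), *KIT* (-1.22) and *RET* (-3.85), beside 12.8% of all genes. Each of these calls was lost without differentiation 2, with edgeR adjusted p from 0.0293 for *KIT* to 0.111 for *ERBB3*. *ETS1* also lost it without differentiation 1, and *ERBB3*, *KIT* and *RET* without differentiation 3. Between adjacent passages from P1 to P8 none of the 9 genes was called. All genes called made up 0.0276% at P2 against P1 and 0.0092% at P3 against P2, and 0.0% at each later step up to P8. At an unadjusted p under 0.05 there were 3 members at the first of these steps, 2 at the second, 1 at P4 against P3 and 0 at the 4 steps after that. Among them were *MITF*, with a log2 difference between P2 and P1 of 2.90 (edgeR adjusted p = 0.0741, SE 0.80), and *KIT*, with 1.21 (0.065, SE 0.32).

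*FOXD3* returned unevenly. It stood at 131, 299.8 and 373 normalized counts at P4, and at 86.1, 90.3 and 262 at P5. At P8 it stood at 431, 2167 and 4527 normalized counts, so that the P8 mean of 48.5 TPM had an SD of 42.4 (n = 3). The P8 groups overlapped those of t0, and the P8 values lay above all P5 values. The log2 difference between P8 and P5 was 3.88 (edgeR adjusted p = 0.15, SE 1.22). In that comparison 0.0092% of all genes tested, 2 genes, were called, and none was a member. edgeR gave 2892 genes at an unadjusted p under 0.05 there, among them 4 members, and DESeq2 called 155 genes and limma 7. At P10 *FOXD3* was 568, 15.5 and 98.8 normalized counts, high only in the library that also held the epithelial markers.

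*ETS1* had the highest level per length of the 9 genes in every group from P3 on, fractions included. It stood at 3319, 4169.6 and 5699 normalized counts at P5 and at 3742, 14896 and 18373 at P8. At P9 it stood at 8152 and 12947, above every t0 library. The call against t0 at P9 had a log2 fold change of 2.18 (edgeR adjusted p = 0.0063, SE 0.64), beside 19.7% of all genes called there. That call was not kept without differentiation 2, which leaves 1 P9 library and a log2 difference of 2.17. It was also lost without differentiation 3, which has no P9 library but shapes the fit (log2 difference 1.86, edgeR adjusted p = 0.0269). At P10 *ETS1* stood at 5704, 11224 and 8384 normalized counts, with a log2 difference of 1.56 and an edgeR adjusted p of 0.0284.

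**Figure D1:**
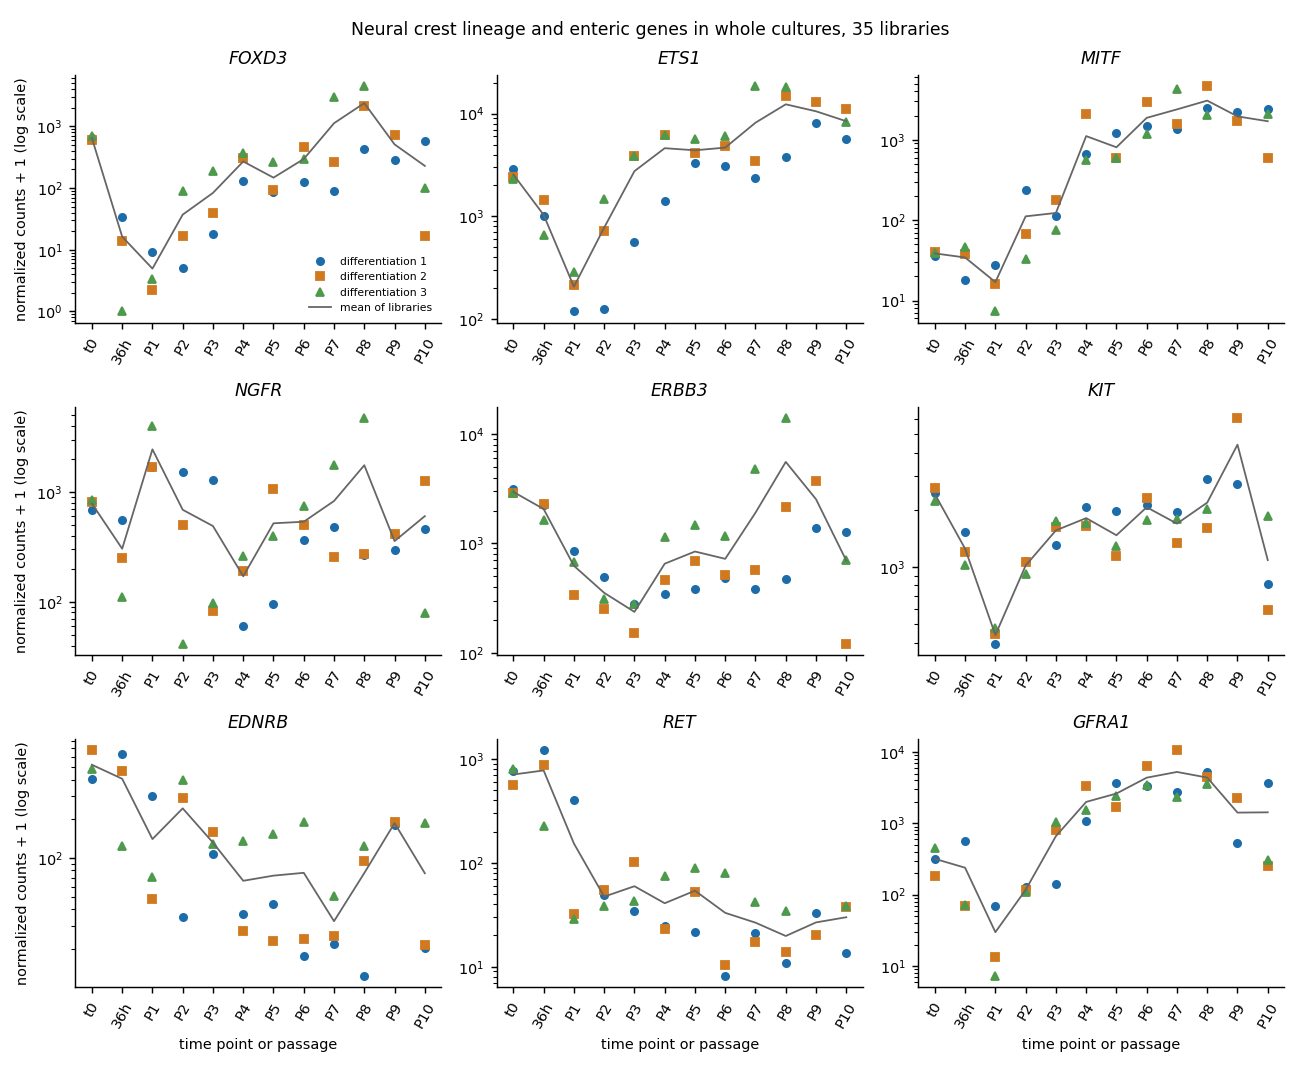
Each panel plots 1 of the 9 genes, with normalized counts plus 1 on a log axis against the time point from t0 to P10, a point for each library coloured by differentiation and a line for the group mean. *FOXD3*, *ETS1* and *KIT* have their lowest means at P1, *MITF* and *GFRA1* are far higher at P8 than at P1, and *RET* stays low from P2 on.

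*MITF* had the largest log2 fold change above t0 of the 9 genes. It was near the bottom of the range at t0, with 35.3, 39.4 and 38.1 normalized counts, and still lower at P1 with 26.7, 14.9 and 6.32. At P4 it stood at 662, 2114 and 557, and at P5 at 1229.9, 592 and 598 normalized counts. All P4 and P5 libraries lay above all t0 libraries. At P8 it stood at 2496, 4696 and 2029 normalized counts and at P10 at 2432, 596 and 2077. The lowest P10 value, in differentiation 2, was still above every t0 value.

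*MITF* was called against t0 at each passage from P4 to P10. The log2 fold change was 4.87 (edgeR adjusted p = 1.73e-05, SE 0.76) at P4 and 4.44 (edgeR adjusted p = 3.78e-05, SE 0.74) at P5, a 21.7-fold rise at P5. It was 6.33 (edgeR adjusted p = 9.49e-07, SE 0.80) at P8, an 80.4-fold rise, and 5.54 (edgeR adjusted p = 2.77e-06, SE 0.78) at P10, where it was 5.29 (edgeR adjusted p = 1.06e-05) without the P10 library of differentiation 1. The call held without any 1 of the 3 differentiations at P4 to P8 and at P10, at P5 in the planned set of such fits. At P9 leaving out differentiation 1 or 2 leaves 1 library, and the log2 fold change was 5.29 and 5.74 in those fits. Of all genes tested, 14.0% were called at P4, 14.3% at P5, 15.4% at P8 and 18.3% at P10. In TPM, *MITF* went from 0.427 ± 0.099 (SD, n = 3) at t0 to 33.5 ± 14.4 at P8 (n = 3). The annotated isoforms were not separated here.

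Other melanocyte genes were at very different levels. *DCT* and *TYR*, which encode enzymes of melanin synthesis and were the defining genes of an 11-gene melanocyte list, had group means of at most 0.65 and 0.137 TPM. Their highest single libraries were 1.70 and 0.33 TPM. *PMEL*, a melanosome structural gene of the same list that was chosen after its values were seen, was by contrast already at 96.7 TPM at t0, with 39.2 TPM at P5, 44.5 at P8 and 30.2 at P10. *TYRP1*, a further melanin enzyme, had mean levels of 0.107 TPM at t0, 0.503 at P5, 4.93 at P8 and 15.1 at P10. It rose against t0 at P8, by 6.02 on the log2 scale, and at P10, by 8.89. Without the P10 library of differentiation 1 the P10 value was 5.89 (edgeR adjusted p = 0.000196) and its mean fell under the minimum of 100 normalized counts, so the call was lost. Of 10 melanocyte genes tested, 0 rose and 1 fell at P5 (*GPR143*, a pigment cell receptor, at -2.13 on the log2 scale). At P8, 3 rose, with *OCA2*, a melanosome transporter, at 3.17 and the melanocortin receptor gene *MC1R* at 1.08 beside *TYRP1*, and at P10 4 rose, among them *RAB27A*, a melanosome transport gene (1.90, from 6.56 TPM at t0 to 22.2, and 2.02 without that library). Without it, 3 of the list rose and 1 fell at P10, the latter being *PMEL* (-3.03). Without differentiation 2 only 1 rose at P10, and without differentiation 3 only 2. The P8 calls numbered 0 without differentiation 2 and 0 without differentiation 3. Over all genes the share called without differentiation 2 or 3 also fell, from 15.4% to 9.33% and 11.3% at P8. At P10 it fell from 18.3% to 12.4% and 13.6%. The median log2 difference of the list against t0 was 1.00 at P5, 2.34 at P8 and 2.43 at P10, where that of all genes lay between 0.01 and 0.02.

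*KIT* encodes a receptor shared by melanoblasts and other stem cells. It stood at 1964, 1145 and 1293 normalized counts at P5 and at 2908, 1604 and 2029 at P8. Every P5 value lay below every t0 value, with no call, while the P8 values overlapped t0. At P9 it was 2717 and 6079.9, and at P10 812, 591 and 1856. Against t0 *KIT* fell at P10, with a log2 fold change of -1.15 (edgeR adjusted p = 0.00384, SE 0.32). That call was lost without differentiation 1 (edgeR adjusted p = 0.0245), without differentiation 2 (0.111) and without the P10 library of differentiation 1 alone (0.0304). Between P1 and 36 h *KIT* was the only member called, with a log2 fold change of -1.48 (edgeR adjusted p = 0.00618, SE 0.32) beside 1.19% of all genes. None of the 3 fits that leave out a differentiation kept that call.

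*KITLG*, which encodes the KIT ligand, rose at 36 h, with a log2 fold change of 2.47, and its mean level went from 4.82 TPM at t0 to 46.8 at P9.

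*ERBB3* was the most abundant of the 9 genes per length at t0, at 29.4 ± 4.30 TPM (SD, n = 3). It stood at 3116, 2866 and 2905 normalized counts there and at 279, 149.6 and 278 at P3, a log2 fold change of -3.71 (edgeR adjusted p = 0.00141, SE 0.88, with 13.6% of all genes called). Without differentiation 2 the edgeR adjusted p at P3 was 0.0579, and without differentiation 3 it was 0.011. By P8 it stood at 473, 2175 and 14069.8 normalized counts, with differentiation 3 above and the other 2 below every t0 library. Accordingly the P8 mean of 57.7 TPM had an SD of 77.2 (n = 3).

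The same library of differentiation 3 was the highest at P8 for *FOXD3*, *ETS1* and *NGFR*. For *NGFR* it held 4712 normalized counts, against 265 and 269 in the other 2. At P7 differentiation 3 also led, with 3009 normalized counts of *FOXD3* against 89.9 and 262, and 4775 of *ERBB3* against 383 and 575. *MITF* and *GFRA1* did not share this order at P8, since their values there were 2496, 4696 and 2029, and 5216, 4428 and 3516. The summed epithelial markers were lowest in that P8 library, at 167 TPM. Its 12 glial genes summed to 347 TPM, against 59.0 and 218 in differentiations 1 and 2. Their part in the member values was not tested.

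*ERBB2*, the signalling partner of ERBB3, fell against t0 at 36 h (log2 fold change -2.19), P5 (-4.26), P8 (-3.20) and P10 (-4.20). Its mean was 283 TPM at t0 and 17.0 at P5. The ratio of *ERBB2* to *ERBB3* in TPM was 8.64 to 11.1 at t0 and 0.257 to 6.59 at P8, so the 2 genes did not keep 1 proportion. *NRG2*, which encodes a neuregulin, rose at P8 with a log2 fold change of 4.15.

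Glial genes followed no single direction. Of 11 genes of the 12-gene Schwann cell and glia list tested at P5, 1 rose (*PMP22*, a myelin gene, at 2.10) and 2 fell (*POU3F1* at -7.16 and *MBP* at -6.52), with a median of -1.44. At P8, 1 rose and 2 fell, with a median of -1.02, and the list summed to 59.0, 218 and 347 TPM in the 3 differentiations. At P10, 1 rose and 4 fell, with a median of -1.67, and without the P10 library of differentiation 1 again 1 and 4, with a median of -2.82. Without differentiation 2, 1 rose and 2 fell at P10 (median -0.86) and 2 rose and 1 fell at P8, and without differentiation 1, 3 rose and 2 fell at P8. Reads of this list were already present in undifferentiated hESCs, where it summed to between 159 and 173 TPM.

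*EDNRB* was lower in most libraries after P3 than at t0. It stood at 407, 676 and 479 normalized counts at t0, at 36, 26.2 and 134 at P4 and at 43.4, 21.8 and 150.5 at P5. The highest later value of these groups came from differentiation 3 each time. *EDNRB* fell against t0 at P4 (log2 fold change -3.36, SE 1.00, edgeR adjusted p = 0.00839), P6, P7 and P10. At P7 it stood at 20.7, 23.8 and 49.9 normalized counts, its lowest group among whole cultures, with a log2 fold change of -4.22 (edgeR adjusted p = 0.00172, SE 1.04). At P6 the log2 fold change was -3.38 and at P10 -3.37, with 14.6% of all genes called at P6 and 15.2% at P7.

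These calls depended on which libraries were present. Without differentiation 2 the edgeR adjusted p was 0.158 at both P4 and P6, 0.0564 at P7 and 0.141 at P10. Without differentiation 1 it was 0.0241 at P4, 0.0374 at P6 and 0.03 at P10, the P10 call was lost without the P10 library of differentiation 1 alone (log2 difference -2.99, edgeR adjusted p = 0.0357), and the P4 call was also lost without differentiation 3 (0.0121). The share of all genes called at P10 was 19.7%, 12.4% and 13.6% without differentiation 1, 2 and 3, beside 18.3% with all libraries. At P5 and P8 the values missed the threshold, with edgeR adjusted p of 0.0103 and 0.0123 for log2 differences of -3.21 and -3.05.

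The RSEM length of *EDNRB*, an average over its transcripts weighted by abundance, was 2273 to 2518 bases in the 6 libraries of t0 and 36 h. In the 25 of 41 later libraries with at least 50 counts it was 2187 to 4111 bases, with medians of 2366 and 3340. The mix of transcripts assigned to *EDNRB* therefore differed in these estimates between the early and many later libraries.

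The 2 endothelin receptor genes changed places. *EDNRA*, which encodes endothelin receptor A, was at 0.207 to 0.528 of the *EDNRB* level in TPM at t0, at 6.91 to 51.4 times at P5 and at 44.3 to 321 times at P10. Its own mean was 3.13 TPM at t0, 39.5 at P8 and 127 at P9, and it rose against t0 at P10 with a log2 fold change of 4.01, and of 4.39 without the P10 library of differentiation 1. *EDN3*, which encodes the EDNRB ligand, rose at P5 (log2 fold change 3.63), from a mean of 0.41 TPM at t0 to 13.2 at P3 and 5.18 at P5.

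*RET* and *GFRA1*, which together encode the GDNF receptor, moved in opposite directions. *RET* stood at 774, 561 and 797 normalized counts at t0, at 1223, 882 and 228 at 36 h and at 47.6, 53.6 and 37.8 at P2. From P2 on no library held more than 128 normalized counts of *RET*, and every one of these lay below every t0 library. At P8 it stood at 9.93, 13 and 33.4. The log2 fold change of *RET* against t0 was -3.85 (edgeR adjusted p = 0.00231, SE 0.96) at P2. It was -3.75 (edgeR adjusted p = 0.00241, SE 0.95) at P5 and -5.30 (edgeR adjusted p = 0.000186, SE 1.03) at P8, a 39.5-fold fall.

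*RET* was called lower at every passage from P2 to P10. Without differentiation 2 it was called at none of them, with an edgeR adjusted p of 0.0415 at P5 and 0.0152 at P8. At P9 that fit leaves 1 library, with a log2 difference of -4.32. The P2 call was also lost without differentiation 3 (0.0105), and the P3 call without differentiation 1 (0.01003) and without differentiation 3 (0.0159). Without differentiation 2 the log2 fold change was -3.95 at P5 and -5.26 at P8. All genes called fell in that fit too, from 3107 to 1947 genes at P5 and from 15.4% to 9.33% at P8. The P10 call was kept without the P10 library of differentiation 1 alone (-4.20, edgeR adjusted p = 0.00424).

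*GFRA1* was low at P1 and rose later. It stood at 316, 180.3 and 456 normalized counts at t0 and at 67.8, 12.4 and 6.32 at P1. At P5 it stood at 3724, 1719 and 2414, and at P8 at 5216, 4428 and 3516 normalized counts. Every P5 and P8 library lay above every t0 library. *GFRA1* rose against t0 at P6 (log2 fold change 3.75, SE 1.02, edgeR adjusted p = 0.00404), P7 (3.97, SE 1.04, 0.00282) and P8 (3.70, SE 1.01, 0.00395). At P5 the log2 difference of 2.99 (SE 0.98) had an edgeR adjusted p of 0.0148. Each of the 3 calls was lost without differentiation 2 or without differentiation 3, for example with edgeR adjusted p of 0.0454 and 0.0284 at P8. The log2 differences of those P8 fits were 3.45 and 4.32. The smallest in these fits was 2.73, at P7 without differentiation 2. All genes called at P8 were 9.33% without differentiation 2 and 11.3% without differentiation 3, beside 15.4% with all libraries.

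In TPM, *RET* was 2.41 to 4.70 times *GFRA1* in the 3 t0 libraries. The order had turned by P2, when *GFRA1* was 1.65 to 1.89 times *RET*. It was 19.5 to 143 times *RET* at P5 and 51.0 to 346 times at P8, in mean levels 27.1 against 0.257 TPM. At P9 *GFRA1* was 527 and 2304 normalized counts, and at P10 it was 3733, 249 and 301, again high only in differentiation 1, where it was 86.0 times *RET*. The lowest ratio at P10 was 5.41.

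*GDNF*, which encodes the ligand of this receptor, rose at P5 (log2 fold change 4.57) and P8 (4.44) against t0, with its highest early mean of 12.7 TPM at P3. *ARTN*, which encodes a related ligand, fell by 3.93 at P5 and by 3.39 at P8 on the log2 scale. Of 19 ligands and partners of the member receptors tested, 2 rose and 2 fell at P5, with a median of -0.27. At P8 4 rose and 2 fell, with a median of 0.71, and at P10 6 rose and 1 fell, with a median of 1.85. *ERBB4*, a further neuregulin receptor gene (4.74), and *NTF3*, which encodes the neurotrophin NT-3 (3.84), were among the risers at P10. Without the P10 library of differentiation 1, 5 rose and 1 fell there, the call of *KITLG*, which encodes the KIT ligand, being lost. The rises numbered 1 at P10 without differentiation 2 or 3, and at P8 0 without differentiation 2 and 1 without differentiation 3.

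No enteric or autonomic neuron gene was called higher than t0 at P5, P8 or P10. *PHOX2A*, a homeobox factor of autonomic neurons, had a highest group mean of 1.03 TPM, at 36 h. Of 10 genes of this list tested, 0 rose and 1 fell (*NOS1*, which encodes neuronal nitric oxide synthase) in each of these comparisons. *NOS1* had means of 3.12 TPM at t0 and 0.067 at P5. Without the P10 library of differentiation 1, *GATA2*, a transcription factor gene also used in blood, was called higher at P10. The list's median log2 difference was 1.68 at P5, -0.73 at P8 and 2.77 at P10, but 8 of the 10 had a mean under 100 normalized counts at P5. Those 8 were below the minimum level for a call.

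Of the sensory neuron list, *NEUROG2* was called higher at P5, a proneural factor that the study counts among markers of the pre-neural and neural tube. It was listed at 0 TPM in the t0 libraries and had a mean of 11.8 TPM at P5, so no fold is given. *NTRK2*, a neurotrophin receptor gene, rose by 7.22 and *NTRK3* fell by 3.58 on the log2 scale at P5. *NEUROG1*, the other defining gene, had group means of at most 3.84 TPM, and *ISL1* of the same list had group means of at most 0.163 TPM. Of 12 genes tested, 2 rose and 1 fell at P5, 1 rose and 1 fell at P8 and 2 rose and 1 fell at P10, with medians of 1.76, 2.32 and 1.15. At P10 without that library of differentiation 1, 2 rose and 0 fell, with the calls of *NTRK2* and *NTRK3* lost and that of *RUNX3* gained. For all companion lists the share of all genes called was 14.3% at P5, 15.4% at P8 and 18.3% at P10, and the 2 of 12 sensory genes called at P8 are near it. Without differentiation 2 the share was 9.33% at P8 and 12.4% at P10, and without differentiation 3 it was 11.3% and 13.6%.

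Mesenchyme and early crest genes called against t0 were all higher at P5, P8 and P10. Of 12 mesenchyme genes, 4 rose and 0 fell at P5, with a median of 3.76, 5 rose at P8 (4.55) and 8 rose at P10 (3.56). At P10 6 rose without the P10 library of differentiation 1, with *ALX4* and *ACTA2* no longer called, and 3 without differentiation 2 or 3. At P8 3 rose without differentiation 2. *PRRX1*, a limb and facial mesenchyme factor, had means of 0.387 TPM at t0, 255 at P5 and 442 at P9. *PRRX2* was at 2.55 TPM at t0 and 87.2 at P9. *ALX4*, a craniofacial homeobox gene with at most 3 counts in a t0 library, was called higher at P5, and *ACTA2*, smooth muscle actin, rose by 5.12 on the log2 scale. Of 18 crest specifiers, 9 rose and 0 fell at P5 (median 4.87), 11 rose at P8 (5.59) and 10 rose at P10 (6.05, also 10 without that library), led at P5 by *TWIST1* (9.60), *MSX1* (9.47) and *TFAP2A* (8.85). *TFAP2B* was also among the 9, with no fold given, since no t0 library held more than 2 counts of it. *SOX10*, a defining crest and glial factor, was low in whole cultures, with means of 5.68 TPM at P5 and 0.517 at P10. Markers of other cell types moved over the same groups. The 8 pluripotent cell markers summed to 4446 to 5095 TPM at t0, 608 to 890 at P5 and 18.2 to 282 at P10. Against t0 edgeR called 0 higher and 6 lower at P5 and at P8, and 0 higher and 7 lower at P10. Their defining gene *POU5F1* had means of 1636 TPM at t0, 8.19 at P2 and 0.703 at P5. *NANOG* went from 99.2 TPM at t0 to 0.19 at P5. Most of the P5 sums was *LIN28A*, with a mean of 689 TPM, and it reached 239 TPM in a P10 library. The 8 mesoderm markers summed to 7.52 to 9.63 TPM at t0, 71.2 to 1124 at 36 h, 59.6 to 418 at P1 and 8.59 to 10.8 at P5. Of them *TBXT* had a mean of 344 TPM at 36 h and *TBX6* of 147 at P1, and 3 rose at P1 and 4 at P2 with 0 lower. At P8 the list summed to 6.26 to 29.8 TPM, and 3 of 8 were higher and 1 lower than t0 (median 2.72), with 0 called without differentiation 2 or 3. The 8 markers of kidney duct and intermediate mesoderm, where RET and GFRA1 also act, summed to 1.32 to 1.84 TPM at t0, 9.79 to 11.6 at P5 and 12.1 to 21.6 at P8. Of 7 tested, 2 rose and 0 fell at P5 and at P8 (median 2.42 at P8, with 0 called without differentiation 3), and 0 were called at P10. Of 8 blood and endothelial markers tested, 0 were higher and 2 lower at P5, 0 and 1 at P8 and 1 and 2 at P10. The 7 surface ectoderm markers summed to 85.6 to 106 TPM at t0, 125 to 313 at P8 and 132 to 322 at P10, with 1 of 5 tested higher and 1 lower at P8 and at P10 (0 higher and 1 lower at P10 without that library). Of these markers, 0 were called higher and 1 lower at both passages without differentiation 2 or 3. *CDH3* made up most of their sums, with means of 85.4 TPM at t0, 149 at P8 and 184 at P10. The defining genes *TP63* and *KRT5* were at 0.41 and 0.043 TPM at P8, with their highest group means at P7 (1.22) and P1 (3.92). *GRHL3* went from 0.65 TPM at t0 to 62.3 at P8, and *GRHL2* the other way, from 10.75 to 0.007 TPM. The 10 neuron markers summed to 169 to 207 TPM at t0 and 313 to 458 at P10, with 2 higher and 1 lower at P10 (1 and 1 without that library). The part of these markers in the list counts and in the member differences from t0 was not tested.

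**Figure D2:**
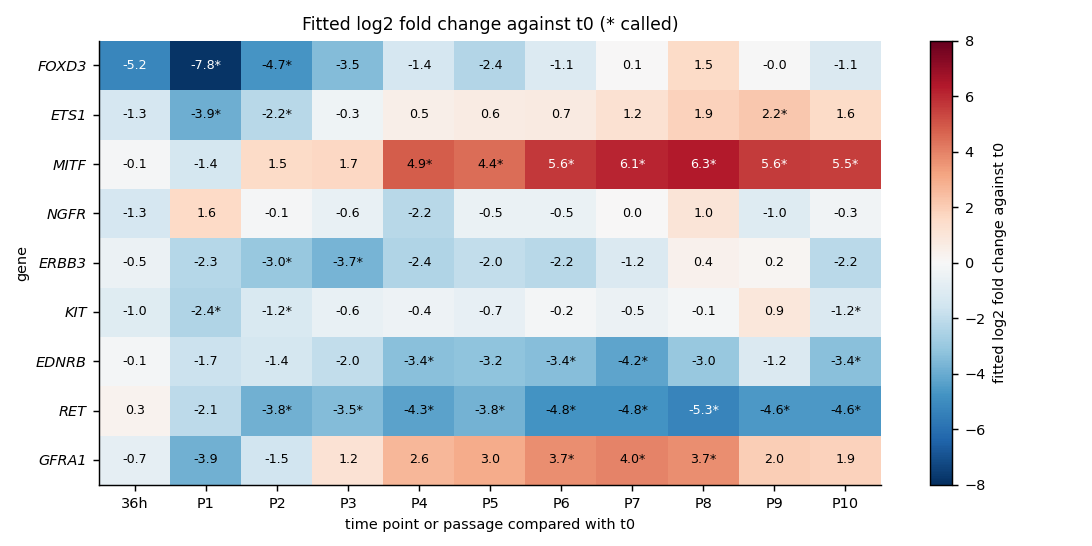
The heat map gives the log2 fold change of each of the 9 genes against t0 at 36 h and P1 to P10, with a mark on the cells called at FDR under 1%. *MITF* is called higher from P4 on and *RET* lower from P2 on, while *NGFR* is never called.

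**Figure D3:**
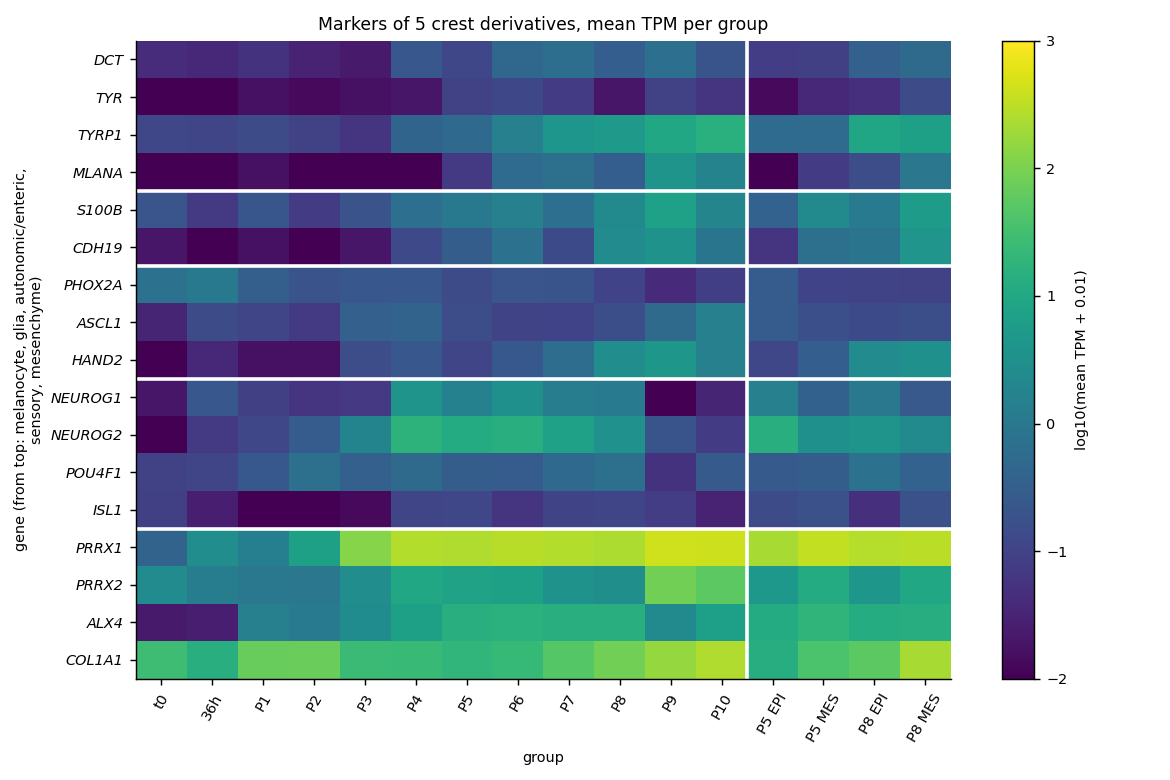
The heat map gives log10(mean TPM + 0.01) in the 16 groups, with genes from 5 derivative lists separated by white lines. *PRRX1* reaches 442 TPM at P9, whereas *DCT* and *TYR* stay under 1 TPM throughout.

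Late passages were compared with P8. Between P9 and P8, where 1.22% of all genes tested were called, no member passed, and 1 had an unadjusted p under 0.05. DESeq2 called 819 genes in that comparison and limma 321, with edgeR calling 265. *KIT* had the largest difference relative to its error, at 1.07 (edgeR adjusted p = 0.0524, SE 0.35). Without differentiation 3 edgeR called 0 genes, and without the differentiation block 15. Leaving out differentiation 1 or 2 leaves 1 P9 library, so calls from those fits are not given.

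Between P10 and P8, with 0.0874% of all genes called, no member passed, and 3 had an unadjusted p under 0.05. These were *FOXD3* with a log2 difference of -2.64 (edgeR adjusted p = 0.28, SE 1.23), *ERBB3* with -2.54 (SE 0.86, 0.126) and *KIT* with -1.02 (SE 0.32, 0.0925). For *GFRA1* it was -1.84 (edgeR adjusted p = 0.343, SE 0.95). The calls depended on the P10 library of differentiation 1, which held more epithelial markers than the other 2. Without that library alone, *FOXD3* at -5.78 (edgeR adjusted p = 0.00431) and *ERBB3* at -3.75 (0.0097) were called lower, among 839 genes called. Without differentiation 1 altogether, *FOXD3* (-6.04), *ERBB3* (-4.24) and *GFRA1* (-3.82) were called lower, and over all genes the calls went from 19 to 917. Without differentiation 2 or without differentiation 3 there were 0 calls over all genes. At P10 *ERBB3* stood at 1259.9, 120.4 and 708 normalized counts. Between P10 and P9 edgeR called no gene, a share of 0.0%, with 2296 genes at an unadjusted p under 0.05, 3 of them members. *KIT* had an edgeR adjusted p of 0.035 for a log2 difference of -2.09 (SE 0.36).

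The fractions show how the 9 genes divided between epithelial- and mesenchymal-enriched cells. At P5 the epithelial marker sum was 475 to 748 TPM in the epithelial-enriched libraries (P5_EPI) and 89.3 to 265 TPM in the mesenchymal-enriched ones (P5_MES). *CDX2* (means of 343 and 117 TPM) and *SOX2* (214 and 65.7) made up most of these sums. *CDH1* (0.12 and 0.127) and *CLDN6* (2.15 and 2.17) hardly differed. So the selection moved most but not all of these markers, with epithelial signal left in the mesenchymal samples. At P8 the same sums were 187 to 680 TPM (P8_EPI) and 52.8 to 477 TPM (P8_MES), and the ranges overlapped.

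*ETS1* was the member that differed most clearly between the P5 fractions. It stood at 1238, 3089 and 3531 normalized counts in P5_EPI and at 9311, 8907 and 8925 in P5_MES. Every mesenchymal-enriched library lay above every epithelial-enriched one, and the 3 mesenchymal values were close to each other. The log2 difference was 2.04 (SE 0.44), a 4.11-fold difference, with an edgeR adjusted p of 0.0319. At FDR under 1% no gene of the 18885 tested was called, 0.0%, with a lowest adjusted p of 0.0139. There were 4894 genes at an unadjusted p under 0.05 and 1490 at an FDR under 5%, 2 of them members. DESeq2 called 674 genes and limma 0.

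*EDNRB* was the other member past an FDR of 5%, at low levels. It stood at 14.6, 19.0 and 49.1 normalized counts in P5_EPI and at 119, 71.0 and 222 in P5_MES. The log2 difference was 2.5 (edgeR adjusted p = 0.0389, SE 0.58), but the mean over both fractions was 82.35 normalized counts, under the minimum for a call. *RET*, at 15.9, 23.0 and 59.7 against 29.7, 92.4 and 128, was higher in the mesenchymal-enriched library of each pair, with a log2 difference of 1.39 (edgeR adjusted p = 0.0793, SE 0.42).

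*FOXD3*, *NGFR* and *ERBB3* were also higher in P5_MES in 3 of 3 differentiations, without passing the test. *FOXD3* was 86.0, 61.8 and 86.9 normalized counts in P5_EPI and 157, 151 and 389 in P5_MES. *NGFR* was 50.6, 704 and 154 against 229, 1988 and 822, and *ERBB3* 366, 592 and 491 against 487, 1217 and 2777. Their log2 differences were 1.37, 1.81 and 1.03, with edgeR adjusted p of 0.157, 0.28 and 0.371. The *NGFR* groups overlapped because the differentiations differed more than the fractions did.

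*KIT* and *MITF* were lower in P5_MES in 3 of 3 differentiations, again without passing. *KIT* stood at 2061, 1427 and 1419.5 normalized counts in P5_EPI and at 928, 800.3 and 977 in P5_MES, with groups that did not overlap and a log2 difference of -0.87 (edgeR adjusted p = 0.317, SE 0.50). *MITF* stood at 1424, 702 and 481 against 699, 509 and 446, a log2 difference of -0.59 (edgeR adjusted p = 0.352, SE 0.36). *GFRA1* showed a difference of -0.05 (SE 0.30), the smallest of the 9. The median of the 9 genes was 1.37, beside 0.00 over all genes tested.

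**Figure D4:**
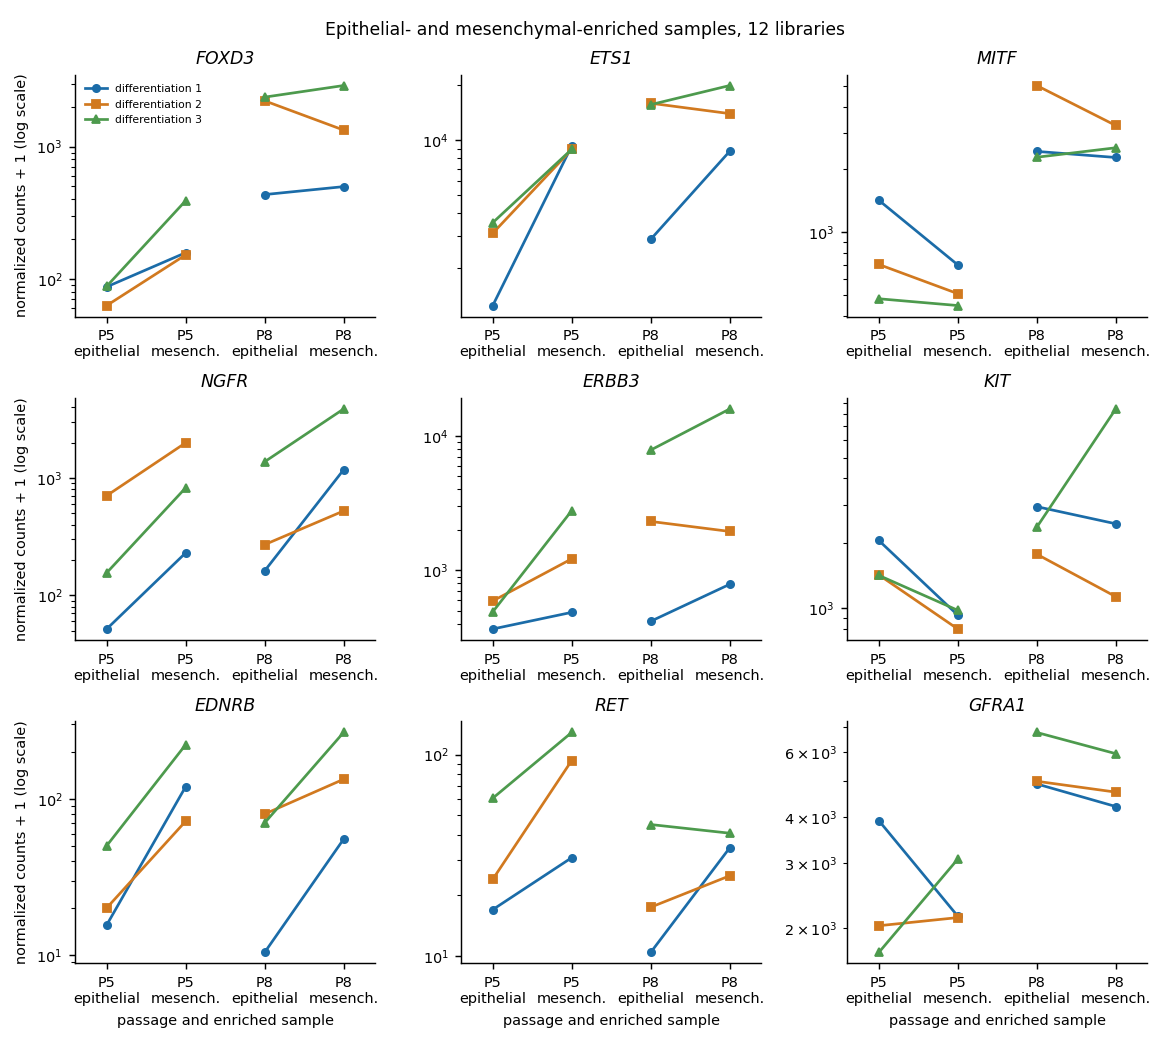
Normalized counts of each gene (log axis) are plotted for the epithelial- and mesenchymal-enriched libraries of P5 and P8, with lines joining the 2 fractions of a differentiation. At P5 all 3 lines of *ETS1*, *EDNRB* and *FOXD3* climb from the epithelial to the mesenchymal side, and those of *KIT* descend.

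The derivative lists behaved as follows between the P5 fractions: none of their genes was called, and the median log2 differences were 1.44 for glia, 0.98 for crest specifiers, 0.70 for mesenchyme, 0.48 for enteric and autonomic neurons, 0.34 for melanocytes and 0.26 for sensory neurons. In TPM, *SOX10* had means of 1.29 in P5_EPI and 11.8 in P5_MES. *NEUROG2* was the other way round, with means of 13.6 in P5_EPI and 3.25 in P5_MES. *EDN3* had means of 3.32 and 9.97 TPM. Of the lists for other cell types, 9 blood and endothelial markers were at 3.13 to 3.50 TPM in sum in P5_EPI and at 5.06 to 22.0 in P5_MES, and 8 mesoderm markers at 6.70 to 11.7 and 8.00 to 20.6. The 8 pluripotent cell markers summed to 946 to 1032 TPM in P5_EPI and 305 to 532 in P5_MES. *LIN28A* made up most of these sums, with means of 887 and 357 TPM, while *DPPA4* went the other way (19.5 and 43.9). The 10 neuron markers summed to 212 to 319 and 87.3 to 178 TPM, mostly *TUBB3* (means of 224 and 114). Among them *STMN2* (3.45 and 5.37), *DCX* (0.857 and 1.85), *ELAVL4* and *ISL1* had higher means in P5_MES. None of these marker genes was called, and their part in the member differences was not tested.

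At P8 *ETS1* stood at 2857, 15974 and 15694 normalized counts in P8_EPI and at 8695, 14009.7 and 19979 in P8_MES, a log2 difference of 0.47 (edgeR adjusted p = 0.683, SE 0.42). It was higher in the mesenchymal-enriched library in differentiations 1 and 3 and lower in differentiation 2. *NGFR* was higher in 3 of 3, at 160.2, 269 and 1369 against 1169.9, 522 and 3858, a log2 difference of 2.02 (edgeR adjusted p = 0.45, SE 0.97). *EDNRB* was also higher in 3 of 3, at 9.38, 79.0 and 69.2 against 54.2, 133 and 266, a log2 difference of 1.5 (edgeR adjusted p = 0.366, SE 0.56). No gene was called at P8, 0.0% of those tested, with 2261 at an unadjusted p under 0.05 (1 of them a member). DESeq2 called 55 genes and limma 0.

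Whether the fractions differed more at P5 than at P8 was tested with an interaction term, and no gene passed (0.0% called, lowest edgeR adjusted p 0.816, 1152 genes and 1 member at an unadjusted p under 0.05, 1 gene called by DESeq2 and 0 by limma). The largest member estimates were -1.57 (edgeR adjusted p = 0.816, SE 0.60) for *ETS1*, -1.51 (SE 0.74, 0.824) for *FOXD3* and 1.39 (SE 0.71, 0.826) for *KIT*. Within the epithelial-enriched samples, P8 against P5 gave 4.07 (edgeR adjusted p = 0.0132, SE 0.59) for *FOXD3*, 2.01 (SE 0.44, 0.0324) for *ETS1* and 1.91 (SE 0.38, 0.025) for *MITF*. No member was called there, beside 0.259% of all genes, and 5 had an unadjusted p under 0.05. In the mesenchymal-enriched samples 0.699% of all genes and no member were called, again with 5 members at an unadjusted p under 0.05, and *MITF* had the lowest edgeR adjusted p (0.0126) for a log2 difference of 2.29 (SE 0.38). *TYRP1* rose in both, by 4.21 and 3.88 on the log2 scale.

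**Figure D5:**
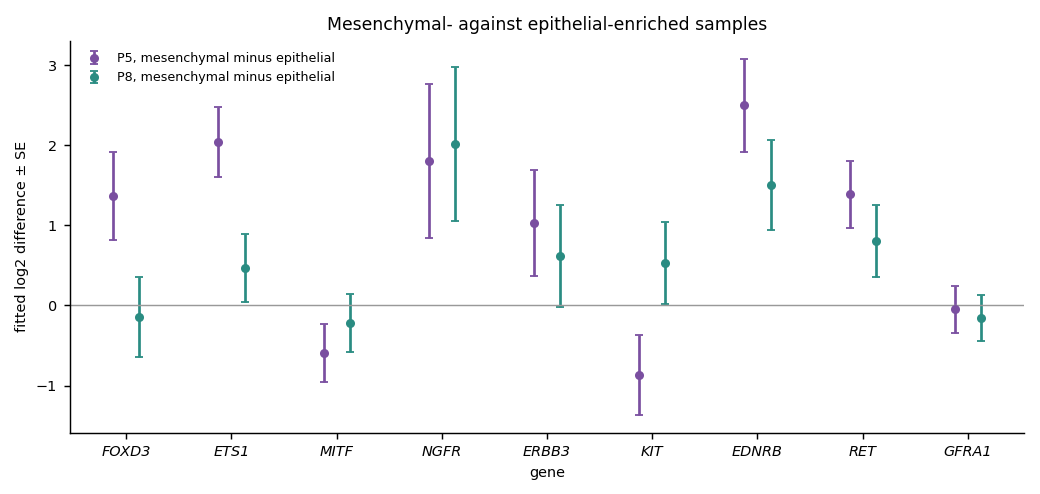
Log2 differences between mesenchymal- and epithelial-enriched samples are given for the 9 genes at P5 and P8, with bars of 1 standard error. *EDNRB* (2.5) and *ETS1* (2.04) lie furthest above 0, the mesenchymal side, at P5 and *NGFR* (2.02) at P8. *KIT* lies on the epithelial side at P5 and, at 0.53, on the mesenchymal side at P8. Without differentiation 3 its P8 difference was -0.43.

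Per length, *ERBB3* and *ETS1* held the top 2 places of the 9 genes at both t0 and P8, while *MITF* moved from place 9 to 4, *GFRA1* from 8 to 5 and *KIT* from 3 to 7. The P8 place of *ERBB3* rested on the library of differentiation 3, with levels from 5.11 to 146 TPM over the P8 libraries. At t0 the mean TPM ran *ERBB3* (29.4), *ETS1* (21.7), *KIT* (19.3), *FOXD3* (11.9), *NGFR* (8.72), *EDNRB* (8.26), *RET* (5.91), *GFRA1* (1.85) and *MITF* (0.427). The ranges of *ETS1* and *KIT*, of *NGFR* and *EDNRB*, and of *EDNRB* and *RET* overlapped there. At P5 *ETS1* (46.4) stood clear of *GFRA1* (16.4), and all later neighbours, from *KIT* (13.7) down to *EDNRB* (0.897) and *RET* (0.49), overlapped. At P8 the order was *ETS1* (127), *ERBB3* (57.7), *FOXD3* (48.5), *MITF* (33.5), *GFRA1* (27.1), *NGFR* (21.8), *KIT* (20.0), *EDNRB* (1.08) and *RET* (0.257), and only *KIT* and *EDNRB* were neighbours with separate ranges. At P10 *ETS1* (84.1) stood clear of *MITF* (18.8), and the neighbours below overlapped down to *EDNRB* (0.933) and *RET* (0.30). *EDNRB* and *RET*, both needed by enteric crest, thus held the lowest 2 places at P5, P8 and P10.

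Profiles over the 47 libraries are described by Pearson's r of log2 values, which share differentiations, passages and depth. Among the 9 genes, r was highest for *GFRA1* and *MITF* (0.850), *ETS1* and *FOXD3* (0.823) and *GFRA1* and *FOXD3* (0.762), followed by *RET* and *EDNRB* (0.756), and lowest for *RET* and *MITF* (-0.681). Over 13297 genes, profiles among the 3 closest to each gene were *FOXD3-AS1* for *FOXD3* (0.869), *BNC2* for *ETS1* (0.916), *TGFBI* for *MITF* (0.947), *PEAR1* for *NGFR* (0.673) and *COL9A3* for *ERBB3* (0.857). For *KIT* it was *LUZP2* (0.748), for *EDNRB* *PFKP* (0.848), for *RET* *RNF135* (0.910) and for *GFRA1* *KLHL14* (0.932). *NGFR* and *KIT* had no gene above 0.75. *FOXD3-AS1* did not keep a fixed proportion to *FOXD3*, at 10.4 to 13 times its TPM at t0 and 1.02 to 1.98 times at P8.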

How the data were processed

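Poly(A) RNA from 47 H9 samples was sequenced as 75-base single-end reads by the authors, who trimmed them with cutadapt 1.16, aligned them with STAR 2.5.2b to GRCh38 and counted them with RSEM 1.3.0, per the submitters' processing notes. The strand setting and annotation release are not given in the sources used here. The deposited expected counts (9.33% not whole) were rounded, and the deposited TPM values were used for levels between genes. The abundance-weighted transcript length is the deposited RSEM value. Symbols came from GENCODE 29 (57447 of 58051 genes matched).

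Tests used edgeR 4.0.16 in R 4.3.3 (TMM scaling, filterByExpr, quasi-likelihood F-test), with 1 fit over 35 whole-culture libraries (21750 genes) and 1 over 12 fraction libraries (18885 genes). The differentiation number was a block, because each experiment held every time point and fraction. Deviations of same-numbered fraction libraries correlated at 0.123 to 0.805. Among whole cultures the range was -0.202 to 0.730, with a mean of 0.140. The fitting step was tested on simulated data with noise set below that fitted to these libraries, so the result does not show how well it works at the spread seen here.

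The members and lists were chosen with earlier results of these data known. Named genes were the 9 members, the 3 closest profiles of each, and per list and comparison up to 4 called genes with the largest change in the same direction in all 3 differentiations, plus the first 2 of each derivative list. Genes outside this rule, such as *ERBB2*, *EDNRA* and *KITLG* where given by level only, were named as partners of a member. Single genes of the marker lists were named where they made up, or went against, a list's sum or calls. Alternatives were DESeq2 1.42.0, limma 3.58.1 on log2(TPM + 1), other scaling, filters, FDR and samples. P-values measure the spread left between libraries of 1 cell line once the differentiation block was fitted, over all groups of a fit. Successive passages of a differentiation were otherwise treated as independent. Some genes of the companion lists are not reported here.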

Additional observations from a re-analysis of the deposited data

How the results depend on the processing

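The differentiation block changed the members called in none of the 8 main comparisons. Without the block the number of members called stayed at 0 for 36 h against t0 and 2 for P5 against t0, while all genes called were 446 against 589 and 2945 against 3107 with it, 0 against 2 for P8 against P5, 15 against 265 for P9 against P8 and 8 against 19 for P10 against P8. Members called at 36 h went from 0 to 1 (*FOXD3*) with DESeq2, limma, all 47 libraries in 1 fit or an FDR under 5%, and ranged from 0 to 1 when 1 differentiation was left out. At P5 against t0 the 2 members called became 4 with DESeq2, limma or all 47 libraries, 6 with only the groups compared, 5 at an FDR under 5% and 1 with at least 10 counts required in every library. That filter left *FOXD3*, *MITF*, *RET* and *GFRA1* untested. The number ranged from 1 to 3 over fits that left out 1 differentiation. Between P10 and P8 it ranged from 0 to 3 in such fits, and was 2 without the P10 library of differentiation 1. Between the P5 fractions the 0 members became 1 (*ETS1*) with DESeq2 (adjusted p = 2.2e-05) or at an FDR under 5%. For the 9 log2 fold changes in the 8 comparisons, 960 of 988 planned values kept their side of the threshold, 27 crossed into a call, 1 lost it and 0 reversed while called. Among the 960, 33 had another sign with neither value called. The interaction has no fit restricted further to the groups compared.

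Leaving out 1 differentiation in the other comparisons, and the P10 library of differentiation 1 from P10 against t0, companion lists included, were chosen after seeing the data. Over all genes, leaving out differentiation 1, 2 or 3 gave 891, 83 and 92 calls at 36 h, 100, 0 and 0 for P8 against P5 and 917, 0 and 0 for P10 against P8. For P5 against t0 it gave 3262, 1947 and 2131 calls, beside 3107 with all libraries. For P9 against P8 there were 0 calls without differentiation 3, and the fits without differentiation 1 or 2 leave 1 P9 library. With only the groups compared, 36 h gave 168 calls and the 3 comparisons of P8, P9 and P10 gave 0. Counts limit *EDNRB*, *RET* and the derivative markers, most of which lie under 100 normalized counts after P3. There were 3 differentiations of 1 cell line, and 2 at P9.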
